A study of Mus musculus with 12 samples.

Results

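The naive pluripotency factors described here are *Klf2*, *Klf4*, *Klf5*, *Esrrb*, *Tfcp2l1*, *Tbx3*, *Zfp42* (REX1), *Prdm14*, *Nr0b1* (DAX1) and *Dppa3* (STELLA), 10 of the 24881 gene symbols of an RNA-seq table. They were chosen by symbol, and each was present once in the table. All 10 had a mean level of at least 0.5 FPKM (fragments per kilobase of transcript, scaled to mapped fragments) and were therefore among the 12572 genes tested. Mouse embryonic stem cells (ESCs) of the R1 line expressed FUCCI, fluorescent reporters of cell cycle position, and were sorted in G1 phase in every group. The 4 groups, with 2 libraries in each, were wild-type (WT) cells in serum, P53-/- cells in serum, WT cells in 2i and P53-/- cells in 2i. Both media hold the cytokine leukemia inhibitory factor (LIF), and 2i is a serum-free medium that also holds inhibitors of the kinases MEK and GSK3. The P53-/- cells were 2 clones made with CRISPR-Cas9 and a guide RNA against an exon shared by the *Trp53* isoforms, and the clone behind each library is not given in the table. Libraries within a group are numbered here by their order in the table, and nothing in the labels says that they came from separate cultures, so p values measure the spread between these libraries only.

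Naive pluripotency is the state of the epiblast before implantation, and ESCs hold it through a network of transcription factors that bind one another's enhancers. LIF, acting through STAT3, feeds the network through *Klf4* and *Tfcp2l1*. Inhibition of GSK3 feeds it through release of the repressor TCF7L1 from targets such as *Esrrb*, and inhibition of MEK removes a differentiation signal that runs through the kinase ERK. The members differ in role. *Klf2*, *Klf4* and *Klf5* encode Krüppel-like zinc finger factors, *Esrrb* and *Nr0b1* encode orphan nuclear receptors, *Tfcp2l1* and *Tbx3* encode transcription factors of the CP2 and T-box families, *Prdm14* encodes a repressor that acts with Polycomb proteins and against DNA methylation, and *Zfp42* and *Dppa3* are widely used as reporters of the naive state. *Dppa3* encodes a maternal protein that protects methylation marks in the zygote and counters the maintenance factor UHRF1.

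Promoter sequences in RefSeq (GRCm38.p6, 250 bases before to 50 bases after a start site) were available for 6 of the 10 genes, as 7 promoters, since *Esrrb* had 2. They are shown for *Klf4*, the Krüppel-like gene with the largest difference between genotypes, and for *Zfp42* and *Esrrb*, the members closest in pattern to each other. Their distance, defined below, was 0.197, but 634 genes lay within 0.2 of *Esrrb* and 293 within 0.2 of *Zfp42*. Each sequence runs 5′ to 3′ on the strand of its gene, with matches to the motifs searched in capitals. The *Klf4* window is chr4:55532426-55532725 (minus strand), the *Zfp42* window chr8:43306960-43307259 (minus strand) and the *Esrrb* window, at the upstream start site, chr12:86360867-86361166 (plus strand).
Klf4: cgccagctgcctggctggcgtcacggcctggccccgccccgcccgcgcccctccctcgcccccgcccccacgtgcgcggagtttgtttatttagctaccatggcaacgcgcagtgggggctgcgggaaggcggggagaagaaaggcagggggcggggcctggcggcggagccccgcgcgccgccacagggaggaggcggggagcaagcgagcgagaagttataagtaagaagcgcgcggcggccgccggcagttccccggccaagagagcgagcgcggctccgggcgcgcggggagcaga
Zfp42: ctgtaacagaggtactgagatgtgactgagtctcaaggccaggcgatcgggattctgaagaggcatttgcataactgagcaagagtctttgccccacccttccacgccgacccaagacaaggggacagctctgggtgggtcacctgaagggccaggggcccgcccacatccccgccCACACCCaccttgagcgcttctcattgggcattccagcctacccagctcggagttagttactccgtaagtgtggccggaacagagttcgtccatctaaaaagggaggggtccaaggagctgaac
Esrrb: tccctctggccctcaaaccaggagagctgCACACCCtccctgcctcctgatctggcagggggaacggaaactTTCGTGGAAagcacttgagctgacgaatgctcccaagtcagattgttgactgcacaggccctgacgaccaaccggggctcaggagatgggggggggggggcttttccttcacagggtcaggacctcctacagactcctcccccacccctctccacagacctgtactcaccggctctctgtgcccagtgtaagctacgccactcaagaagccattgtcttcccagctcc
The motifs searched on both strands were AAGGTCA (ESRRB), GGGNGTG (KLF), TTCNNNGAA (STAT), ATCAAAG (TCF) and the P53 half-site, 1 of the pair that makes up a full P53 site, and no 2 matches overlapped. *Zfp42* held 1 KLF match, CACACCC on the strand shown, which starts 74 bases before the start site. The *Esrrb* window shown held a KLF match 221 bases and a STAT match, TTCGTGGAA, 178 bases before the start site. The other *Esrrb* window, chr12:86421394-86421693, held no match, and which start site these cells used was not tested. The *Klf4* window held none of the motifs but 40 CpG dinucleotides at a GC content of 74.3%, against a median of 7 CpG and 52.7% over 32851 promoters of the same length. The KLF motif was present in 4 of the 7 member promoters and in 29.2% of all promoters. The STAT motif was present in 1 of 7, against 8.30% of all promoters. ESRRB and TCF motifs and P53 half-sites were not present in these 7 windows, and their shares over all promoters were 4.72%, 3.73% and 8.36%. These matches describe the letters of the windows and are not binding sites.

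Some facts of the libraries touch the values below. FPKM values hold no counts, and depth, estimated from the spacing of the lowest values, came to 5,200,000 to 13,200,000 fragments per library, up to a factor common to all. *Trp53* was at 7.25 and 1.88 FPKM in P53-/- 2i against 26.8 and 33.7 in WT 2i, and at 16.8 and 3.68 in P53-/- serum against 77.6 and 75.1 in WT serum. It was called lower in 2i (-2.98 on the log2 scale, adjusted p = 0.0547) but not in serum (-3.26, adjusted p = 0.15). The call in 2i was lost in 6 of 18 alternatives, namely eBayes without trend and leaving out P53-/- 2i library 2 or any of the 4 WT libraries, and 2 of 18 called the serum difference. The estimated fall was not smaller in serum than in 2i, and the SE was 0.74 in both. A guide that cuts an exon need not remove the RNA, and the source of the *Trp53* values left in P53-/- libraries was not tested. *Cdkn1a*, the P53 target that encodes P21, fell in P53-/- by 2.24 on the log2 scale in 2i (adjusted p = 0.00218 by limma) and fell by 2.18 in serum (adjusted p = 0.00601). Of the 7 ESC markers, the core factors were high in all libraries, with *Pou5f1* at 473 to 982, *Sox2* at 110 to 221 and *Nanog* at 249 to 452 FPKM. *Utf1* (4.81 to 7.30) and *Lin28a* (3.76 to 10.3) were low in the 2i libraries, against 46.3 to 55.6 and 87.0 to 106 FPKM in serum, and *Lin28a* was the 1 ESC marker of 7 called between genotypes, lower in P53-/- 2i (-0.91, adjusted p = 0.0708), against 5.97% of all genes called lower. Of the 8 fibroblast markers, *Col3a1* and *Postn* were at 0 in all libraries, and the list summed to 0.691 to 2.31 FPKM. Primitive endoderm markers (7 genes) summed to 1.28 to 4.36 FPKM. Trophoblast markers (7 genes) summed to 5.25 to 13.1 in serum and to 54.9 to 121 in 2i, most of it from the keratins *Krt8* and *Krt18*. *Eomes* was at 0.88 to 1.76 in 2i and 1.26 to 2.53 in serum, *Cdx2* reached 1.05 and *Hand1* 0.54, and *Elf5* and *Gata3* stayed under 0.2. The libraries stood apart in the Y-linked gene *Eif2s3y*, which was at 0 in the 4 P53-/- libraries. In WT cells it was at 8.04 and 8.48 in serum and at 1.66 and 18.3 FPKM in 2i. This split runs with genotype in each culture. The P53 effect below means the difference between P53-/- and WT libraries. It cannot be told apart from this split or from other differences between the clones and WT cells.

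The naive factors did not move as a block with culture or with P53. In WT cells, 3 of the 10 rose in 2i (*Klf2*, *Prdm14* and *Dppa3*) and 2 fell (*Klf5* and *Tbx3*). Calls required an adjusted p below 0.1 together with a more than 1.5-fold difference. Calls were common in this comparison, since 27.2% of all genes tested were called higher and 28.6% lower, so the members' counts lay close to that background. In P53-/- cells, 2 rose in 2i (*Prdm14* and *Dppa3*) and 4 fell (*Klf4*, *Klf5*, *Tbx3* and *Zfp42*), against 28.0% and 30.1% of all genes. Between genotypes in 2i, *Dppa3* was higher and *Klf4* and *Tbx3* were lower in P53-/- cells, 1 and 2 of 10 against 4.36% and 5.97% of all genes. In serum none of the 10 was called by limma, where 0.135% of all genes were called higher and 0.883% lower. At an unadjusted p under 0.05, 1 of the 10 differed in serum (*Tfcp2l1*), against 11.3% of all genes, and 6 of the 10 in 2i, against 25.2%. The interaction, which tests whether the P53 effect differed between 2i and serum, called none of the 10, where 0.207% of all genes were called. An unadjusted p under 0.05 was found there for 4 of the 10 and for 13.1% of all genes. The median log2 difference between P53-/- and WT in 2i was -0.33 over the members and 0.02 over all genes tested, and 8 of the 10 lay below 0. In serum the medians were 0.09 and 0.02. With 2 libraries against 2, an exact permutation test of 1 gene cannot give a two-sided p below 0.33, so the calls rest on the spread that limma shares across genes.

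**Figure D1:**
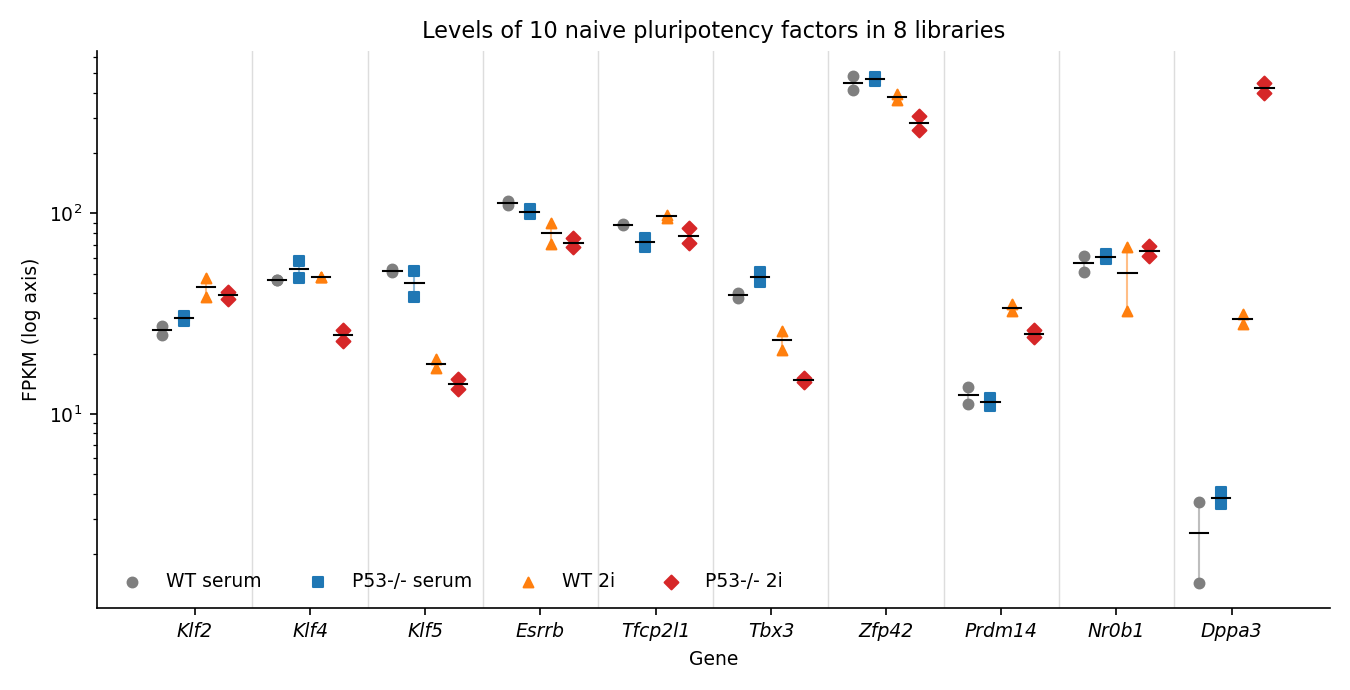
FPKM on a log axis of the 10 naive factors, with 1 point per library, a vertical line joining the 2 libraries of a group and a black bar at their mean, for WT serum (grey), P53-/- serum (blue), WT 2i (orange) and P53-/- 2i (red). *Dppa3* runs from 1.44 to 446 FPKM, the 2 P53-/- 2i libraries of *Klf4* lie at 23.2 and 26.3 below the other 6, and the WT 2i libraries of *Nr0b1* are 32.7 and 68.0.

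Levels per length differed widely between members within a group. *Zfp42* was the highest member in 3 of the groups, with mean levels of 449 FPKM in WT serum, 471 in P53-/- serum and 381 in WT 2i, between 47.4% and 52.5% of the members' summed FPKM. In P53-/- 2i its mean was 283 FPKM (27.3%) and *Dppa3* took the first place with 422 FPKM (40.7%). *Dppa3* was the lowest member in serum, with 0.288% of the sum in WT and 0.424% in P53-/- cells. *Klf5* was the lowest in both 2i groups. Without *Dppa3*, the other 9 genes summed to 604 and 627 FPKM in P53-/- 2i and to 757 and 792 FPKM in WT 2i. The same sum ran from 848 to 916 FPKM in the 4 serum libraries, so both P53-/- 2i libraries lay below the other 6. Much of this sum was *Zfp42*. Without *Zfp42* as well, the sums were 344 and 321 FPKM in P53-/- 2i, 363 and 424 in WT 2i and 415 to 435 in serum. The P53-/- 2i libraries were then still the lowest, by a smaller margin.

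*Klf4* (chr4:55527143-55532466, GRCm38, minus strand), which encodes a reprogramming factor downstream of LIF and STAT3, was at 46.5 and 46.7 FPKM in WT serum and at 48.2 and 48.3 in WT 2i. It was at 47.7 and 57.7 in P53-/- serum and at 23.2 and 26.3 in P53-/- 2i. The libraries of P53-/- 2i were thus the low ones, and the other 6 lay within 46.5 to 57.7 FPKM. In 2i *Klf4* fell in P53-/- against WT by 0.96 on the log2 scale (SE 0.13, adjusted p = 0.00782), a level 0.513 times that of WT. In serum the difference was 0.17 (95% interval -0.13 to 0.47, adjusted p = 0.669). Culture gave 0.05 in WT cells (95% interval -0.25 to 0.35), while in P53-/- cells *Klf4* fell in 2i by 1.08 (SE 0.13, adjusted p = 0.000278). These comparisons share libraries, and the difference of the P53 effect between 2i and serum, tested as an interaction, was -1.13 (SE 0.19) with an adjusted p of 0.102, just short of the threshold. In bulk RNA, fewer cells that express a gene and less RNA per cell cannot be told apart, here or below.

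*Klf2* (chr8:72319033-72321656, plus strand), which supports the network under MEK inhibition, was called with culture in WT cells. Its levels were 24.7 and 27.6 FPKM in WT serum, 29.2 and 30.8 in P53-/- serum, 38.3 and 47.4 in WT 2i, with 37.6 and 40.5 in P53-/- 2i. All 4 libraries in 2i lay above the 4 in serum. The rise in 2i was 0.70 on the log2 scale in WT cells (SE 0.14, adjusted p = 0.00325), and it was under the fold threshold, at 0.55, without WT 2i library 2. In P53-/- cells the difference was 0.38 (adjusted p = 0.0432), under the fold threshold. Between genotypes the differences were -0.13 in 2i (95% interval -0.45 to 0.19) and 0.20 in serum (-0.12 to 0.52).

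*Klf5* (chr14:99298691-99315036, plus strand), the Krüppel-like factor that restrains primitive endoderm genes, moved the other way. It was at 50.8 and 52.9 FPKM in WT serum and at 38.1 and 51.4 in P53-/- serum. In 2i it was at 16.9 and 18.7 in WT and at 13.3 and 15.0 in P53-/- cells. *Klf5* fell in 2i by 1.54 on the log2 scale in WT cells (SE 0.16, adjusted p = 0.000172) and by 1.64 in P53-/- cells (adjusted p = 0.000114), about 2.91-fold and 3.12-fold. Both P53-/- libraries lay below both WT libraries in 2i, with a difference of -0.33 that was not called (95% interval -0.70 to 0.05, adjusted p = 0.254). The interaction was -0.10 (95% interval -0.63 to 0.43). The 3 Krüppel-like genes thus had 3 patterns over the same 8 libraries, with *Klf2* higher in 2i, *Klf5* lower in 2i and *Klf4* low in P53-/- 2i.

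**Figure D2:**
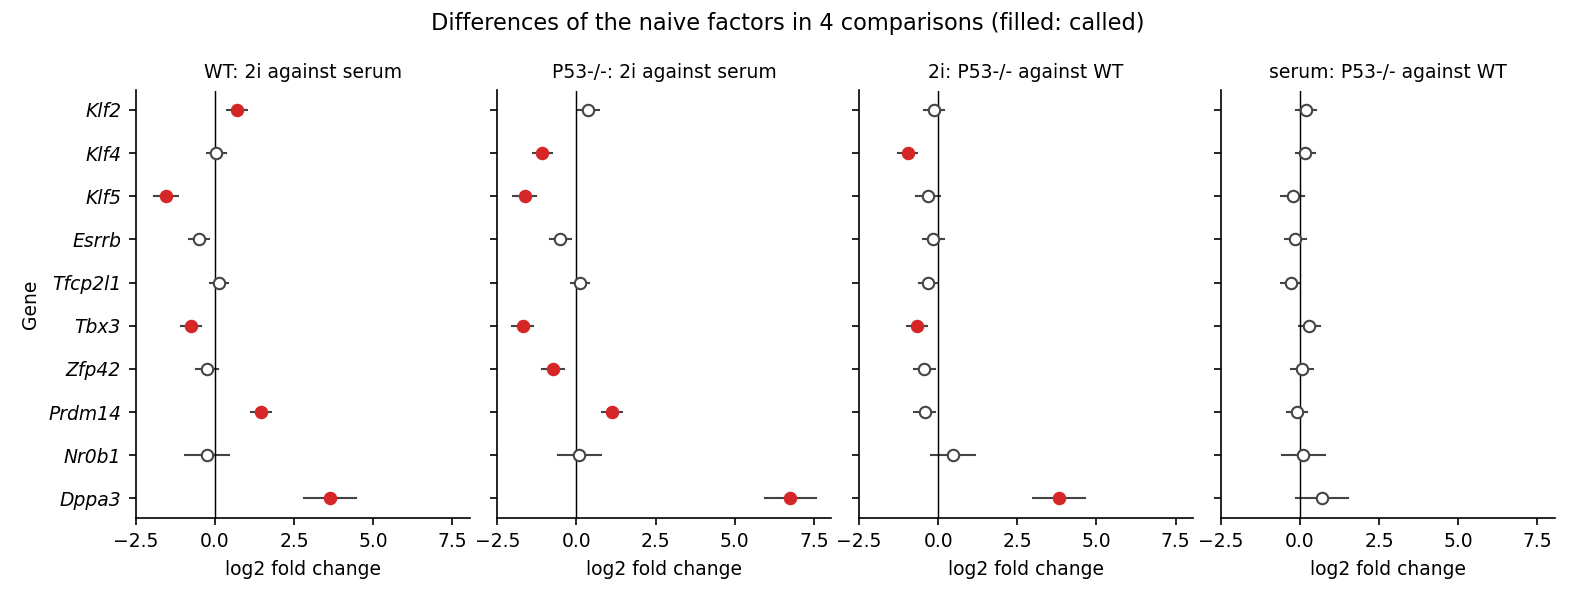
log2 fold changes of the 10 naive factors (rows) in 4 comparisons (panels), with points at the limma estimate, lines at the 95% interval and filled points for called genes. *Dppa3* is called in 3 panels, at 3.63, 6.76 and 3.82, *Klf4* and *Tbx3* lie left of 0 among the filled points for P53-/- against WT in 2i, and no point is filled for serum.

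*Esrrb* (chr12:86361117-86521628, plus strand), a nuclear receptor repressed by TCF7L1, was at 115 and 110.3 FPKM in WT serum and at 105 and 99.2 in P53-/- serum. WT 2i held 70.6 and 90.0 and P53-/- 2i held 75.1 and 68.0 FPKM. All 4 libraries in 2i lay below all 4 in serum. The log2 differences were -0.50 in WT (adjusted p = 0.0168) and -0.51 in P53-/- cells (adjusted p = 0.0142), both under the fold threshold. Without WT 2i library 2 the WT difference was called at -0.67, and without P53-/- 2i library 1 the P53-/- difference was called at -0.59. The median gene of chromosome 12 differed by -0.38 between WT 2i and WT serum, and after centring on the chromosome, an alternative chosen after the data were seen, the *Esrrb* difference was -0.02. The part of the chromosome in this difference was not tested. Between genotypes *Esrrb* differed by -0.16 in 2i (95% interval -0.48 to 0.17) and by -0.14 in serum (-0.47 to 0.19).

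*Nr0b1* (chrX:86191764-86195947, plus strand), the X-linked receptor that binds and restrains other factors of the network, had the widest spread within a group in 2i. The WT 2i libraries held 32.7 and 68.0 FPKM, a gap of 1.05 on the log2 scale against a median gap of 0.19 over genes of at least 10 FPKM in that group. The other groups were closer together, at 51.2 and 61.5 in WT serum, 62.4 and 59.2 in P53-/- serum, and 69.0 and 61.1 in P53-/- 2i. Groups overlapped in each comparison and none was called. The difference between P53-/- and WT in 2i was 0.46 (95% interval -0.23 to 1.15), and a single library decided it. Without WT 2i library 2 it was 0.99 and called (adjusted p = 0.0305), as was the difference between WT 2i and WT serum (-0.78), and without library 1 these were -0.07 and 0.28. Library 1 of WT 2i, the low one for *Nr0b1*, was also the one with *Eif2s3y* at 1.66 FPKM, and the part of this in the result was not tested.

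*Tfcp2l1* (chr1:118627945-118685168, plus strand), a factor induced by LIF and STAT3, had the smallest spread of the members over the 8 libraries, a root mean square of 0.181 about its mean on the log2 scale. It was at 88.9 and 87.3 FPKM in WT serum, 75.6 and 68.4 in P53-/- serum, 94.7 and 98.7 in WT 2i, with 84.2 and 70.9 in P53-/- 2i. Both P53-/- libraries lay below both WT libraries in each culture. The differences were -0.32 in 2i (95% interval -0.61 to -0.03, adjusted p = 0.159) and -0.29 in serum (-0.58 to -0.0022, adjusted p = 0.44), and neither was called. Culture gave 0.13 in WT cells (adjusted p = 0.382) and 0.10 in P53-/- cells (adjusted p = 0.495). After centring on the chromosome, where the median gene of chromosome 1 differed by -0.31 and -0.41, these were 0.42 and 0.56 (adjusted p = 0.0163 and 0.00423 by limma), still under the fold threshold.

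*Tbx3* (chr5:119670669-119684724, plus strand), the T-box factor that links PI3K and MAPK signals to the network, gave 4 separate levels. The order from high to low was P53-/- serum (45.6 and 50.8 FPKM), WT serum (40.2 and 37.8), WT 2i (25.9 and 20.9) and P53-/- 2i (15.1 and 14.4), with no overlap between neighbours. *Tbx3* fell in 2i by 0.74 on the log2 scale in WT cells (SE 0.14, adjusted p = 0.00242) and by 1.70 in P53-/- cells (adjusted p = 5.25e-05). The first of these passed the test but not the fold threshold after quantile normalization (-0.57). In 2i it fell in P53-/- against WT by 0.66 (SE 0.14, adjusted p = 0.034). That call was lost in a fit of the 2i libraries alone (adjusted p = 0.117) and without P53-/- 2i library 1 (0.105) or 2 (0.155), and without WT 2i library 1 the difference (-0.50) was under the fold threshold. In serum the difference was 0.30 in the other direction and was not called (95% interval -0.01 to 0.62, adjusted p = 0.457). The interaction was -0.96 (SE 0.19, adjusted p = 0.161). The median gene of chromosome 5 differed by 0.24 between P53-/- and WT in 2i, opposite in sign to *Tbx3*.

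*Zfp42* (chr8:43295063-43306980, minus strand), which encodes a zinc finger protein related to YY1, was the most abundant member outside P53-/- 2i. Its levels were 485 and 413 FPKM in WT serum, 482 and 459.8 in P53-/- serum, 394 and 368 in WT 2i, with 259.9 and 307 in P53-/- 2i. The P53-/- 2i libraries were the lowest and the serum groups overlapped. In P53-/- cells *Zfp42* fell in 2i by 0.74 on the log2 scale (SE 0.15, adjusted p = 0.00343), while in WT cells the difference was -0.23 (adjusted p = 0.211). In 2i the difference between P53-/- and WT was -0.43 (95% interval -0.78 to -0.09, adjusted p = 0.124) and was not called. The interaction was -0.51 (adjusted p = 0.367), so the culture effect was not shown to differ between genotypes. A pseudogene, *Zfp42-ps1*, shares 13.4% of the 31-base words of *Zfp42* and has no row in the table, so how its reads were counted is uncertain.

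*Prdm14* (chr1:13113457-13127163, minus strand) rose in 2i in both genotypes. It was at 13.6 and 11.2 FPKM in WT serum, 10.98 and 12.0 in P53-/- serum, 35.4 and 32.5 in WT 2i, with 26.1 and 24.3 in P53-/- 2i. The rise was 1.45 on the log2 scale in WT cells (SE 0.14, adjusted p = 0.000115) and 1.12 in P53-/- cells (adjusted p = 0.000303), or 2.74-fold and 2.18-fold. In 2i both P53-/- libraries lay below both WT libraries, with a difference of -0.43 (95% interval -0.75 to -0.11, adjusted p = 0.106) that was not called. In serum the groups overlapped (-0.10).

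*Dppa3* (chr6:122626410-122630272, plus strand) spanned the widest range. It was at 1.44 and 3.66 FPKM in WT serum and at 3.54 and 4.07 in P53-/- serum. WT 2i held 28.1 and 31.5 FPKM, and P53-/- 2i held 397 and 446 FPKM. Each step from serum to WT 2i to P53-/- 2i was thus free of overlap, while the serum groups overlapped. *Dppa3* rose in 2i by 3.63 on the log2 scale in WT cells (SE 0.35, adjusted p = 0.000121), which is 12.4-fold, and by 6.76 in P53-/- cells (adjusted p = 1.57e-05), which is 108-fold. In 2i it was 14.1-fold higher in P53-/- than in WT cells (log2 difference 3.82, SE 0.35, adjusted p = 0.00158). This was the second largest rise among 11864 protein-coding genes tested, and place 33 of all 12572 genes, where small RNA genes filled most of the higher places. All alternatives kept these 3 calls. The rise in WT cells was 2.99 without WT serum library 1 and 4.27 without library 2.

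In serum the *Dppa3* difference between genotypes was 0.69 (95% interval -0.12 to 1.51, adjusted p = 0.499). On the scale of the estimated depth, known up to a common factor, it corresponds to 15.8 and 21.3 fragments in the WT libraries and 35.8 and 32.2 in the P53-/- libraries, against 3179 and 1994 in P53-/- 2i. Without WT serum library 2 the difference was 1.34 and called (adjusted p = 0.0528), and without library 1 it was 0.05. The interaction for *Dppa3* was 3.13 (SE 0.50, 95% interval 1.98 to 4.28) with an adjusted p of 0.101, on the edge of the threshold. It was called in 8 of 17 alternatives, among them a pseudocount of 1 (3.27, adjusted p = 0.0272), and adjusted p ran from 0.00228 to 0.269. Pseudogenes share sequence with *Dppa3*, 28.9% of its 31-base words with *Dppa3-ps* and 7.08% with *Gm47576*, and neither has a row in the table. Reads of these copies could thus count for *Dppa3*, and their part was not tested.

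Markers of the 2-cell-like state, a rare state of ESC cultures, and of germ cells, where *Dppa3* is also expressed, were set beside it. The 2-cell-like list of 6 genes summed to 3.52 and 38.3 FPKM in P53-/- 2i and to 5.49 and 13.1 in WT 2i, and *Zscan4d* was at 0.80 and 7.08 in P53-/- 2i. *Dppa3* was at 397 in the library low for these genes and at 446 in the high one. The 5 germ cell genes summed to 60.2 and 70.1 FPKM in P53-/- 2i and to 51.3 and 58.7 in WT 2i. Of these, *Dazl* was at 43.1 and 55.4 in P53-/- 2i and at 41.4 and 44.3 in WT 2i (log2 difference 0.19, adjusted p = 0.835). Neither list had a gene called between genotypes in 2i, nor one with an unadjusted p under 0.05 there, of the 4 2-cell-like and 5 germ cell genes tested. Over all genes, 4.36% were called higher, 5.97% were called lower and 25.2% had an unadjusted p under 0.05, so that 0 calls among so few genes lay near the background. All 4 and all 5 differences nonetheless lay above 0, with medians of 0.43 and 0.34 against 0.02 over all genes. In serum 3 of the 4 and all 5 lay above 0 (medians 0.23 and 0.79), and none was called. There 2 germ cell genes had an unadjusted p under 0.05 by limma, against 11.3% of all genes. With culture, some of both lists were called. *Dazl* rose in 2i by 3.12 in WT and 2.71 in P53-/- cells and *Tex101* by 3.29 and 2.68, whereas *Ddx4* (-2.51 and -2.96) and *Mael* (-2.87 and -3.35) fell. *Tcstv1* was called higher with a wide spread, by 2.59 in WT (95% interval -0.10 to 5.27) and by 2.77 in P53-/- cells (0.080 to 5.45), where its groups overlapped. *Tcstv3* was called in P53-/- cells (3.91, interval 0.81 to 7.01) and not in WT (2.14). Their part in the rise of *Dppa3* with 2i was not tested.

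Neighbours of *Dppa3* on chromosome 6, a cluster with other pluripotency genes, were examined after its values had been seen. Of 8 protein-coding genes near it that were tested, none was called between genotypes in 2i, where 4.36% of all genes were called higher and 5.97% lower, so that a count of 0 of 8 lay near the background. Their log2 differences ran from -0.39 for *Nanog* (adjusted p = 0.213) to 0.45 for *Necap1* (adjusted p = 0.0506, under the fold threshold), whereas that of *Dppa3* was 3.82. *Gdf3*, next to *Dppa3*, was at 63.5 and 41.8 FPKM in P53-/- 2i and at 56.2 and 48.2 in WT 2i. It rose in WT 2i against WT serum by 0.63 (adjusted p = 0.0238), as did *Apobec1* by 1.09 (adjusted p = 0.00285). *Slc2a3*, beyond *Nanog*, rose there by 1.38 (adjusted p = 0.000431) and was at 495 and 473 in P53-/- 2i against 675 and 482 in WT 2i.

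**Figure D3:**
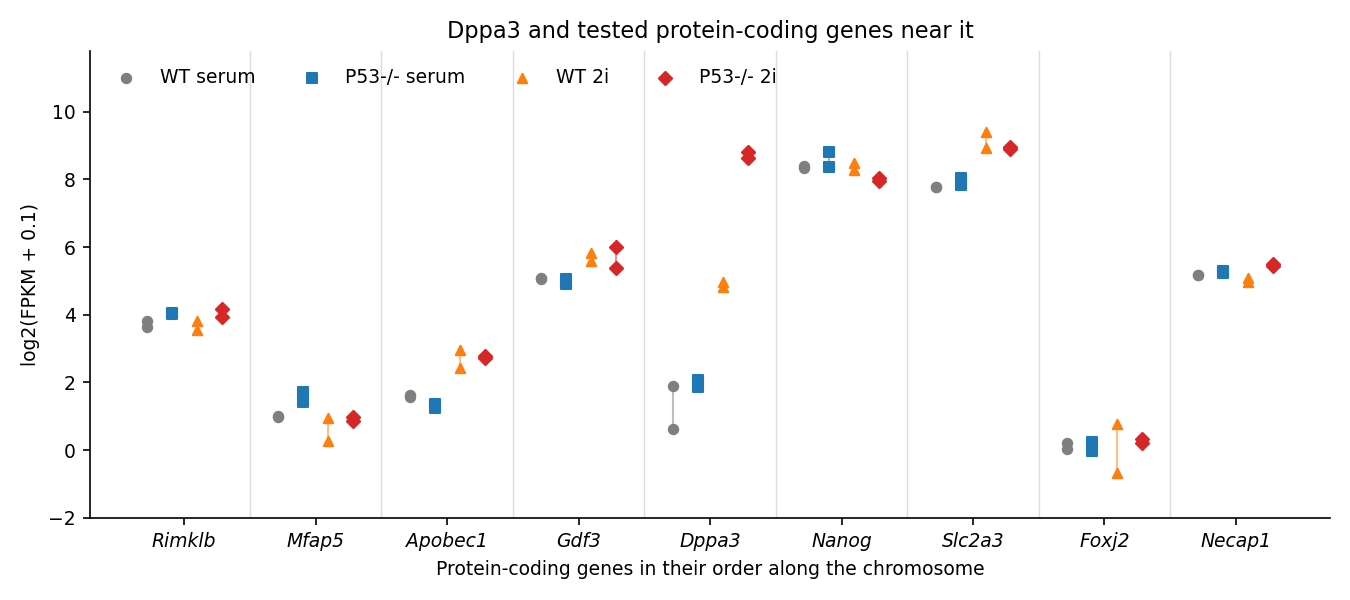
log2(FPKM + 0.1) of *Dppa3* and of 8 tested protein-coding genes near it, in their order on the chromosome and not to scale, with 1 point per library and colours by group as in the legend. For *Dppa3* the P53-/- 2i points lie 3.82 above the WT 2i points, and for the neighbours tested the same difference runs from -0.39 to 0.45.

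Related genes were read in the same way, from lists whose choice was not independent of earlier results of these data. Of 18 other genes tied to the naive state, 6 rose and 7 fell in WT 2i against WT serum, and 7 rose and 10 fell in P53-/- cells. Over all genes, 27.2% rose and 28.6% fell in WT cells, against 28.0% and 30.1% in P53-/- cells, and these shares are the background for the culture counts of each list. *Spic*, an ETS factor, rose by 5.30 on the log2 scale in WT and by 4.13 in P53-/- cells, and *Fbxo15* rose by 2.22 and 1.72. *Gbx2* fell (-2.95 in WT and -3.12 in P53-/- cells), as did the dioxygenase gene *Tet1* (-2.60 and -2.91). *Sall4* fell in both genotypes (-1.85 and -2.05). Between genotypes in 2i, 2 of the 18 were called, both lower in P53-/- cells, against 5.97% of all genes called lower. These were the dioxygenase gene *Tet2* (fell by 0.92, adjusted p = 0.0381) and the imprint regulator *Zfp57* (fell by 0.87, adjusted p = 0.0204). The count was 1 in a fit of the 2i libraries alone and without P53-/- 2i library 1 or 2, WT 2i library 1 or WT serum library 1. *Tet2* was at 13.5 and 13.3 FPKM in P53-/- 2i, 32.1 and 20.1 in WT 2i, and 45.8 to 49.3 in serum. The list's median difference was -0.17, against 0.02 over all genes, and none of the 18 was called in serum by limma, where 0.135% of all genes were called higher and 0.883% lower. An unadjusted p under 0.05 was found for 2 of the 18 there, against 11.3% of all genes, and 1 of the 18 was called without P53-/- serum library 1.

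Of 14 genes for the signals that feed the network, 2 rose and 4 fell with 2i in WT cells, and 3 rose and 3 fell in P53-/- cells, near or below the share over all genes (27.2% and 28.6% in WT, 28.0% and 30.1% in P53-/- cells). *Il6st*, which encodes the LIF co-receptor GP130, fell by 1.18 in WT cells (-0.38 and not called in P53-/- cells), the receptor gene *Lifr* fell in both genotypes (-1.08 and -1.25), and *Mapk3*, which encodes ERK1, fell as well (-0.86 and -0.81). *Socs3*, a STAT3 target that damps the pathway, fell in both genotypes (-0.83 in each), and *Map2k2*, which encodes MEK2, rose by 0.81 in WT and 1.26 in P53-/- cells. *Lif* rose with 2i by 1.30 in WT and 1.14 in P53-/- cells at low levels, and it was called between genotypes in both cultures. It fell in P53-/- cells by 2.23 in 2i (adjusted p = 0.0174) and by 2.06 in serum (adjusted p = 0.0784, a call lost whenever 1 library was left out and kept in 6 of 18 alternatives), with 0.58 and 0.41 FPKM in P53-/- 2i against 2.29 and 3.07 in WT 2i. *Il6st* was higher in P53-/- 2i, at 19.6 and 20.8 FPKM against 10.3 and 14.7 in WT 2i (log2 difference 0.70, adjusted p = 0.0636). These were 1 higher and 1 lower of 14 in 2i, against 4.36% and 5.97% of all genes. In 2i the count of 2 calls fell to 1 without P53-/- 2i library 2, WT 2i library 1 or either WT serum library, in a fit of the 2i libraries alone, with eBayes without trend and after centring by chromosome. In serum *Lif* was the 1 gene of the 14 that was called, where 0.883% of all genes were called lower.

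Of 11 genes of the formative and primed states, which follow naive pluripotency, 9 were tested. In WT cells 3 rose and 4 fell with 2i, and in P53-/- cells none rose and 5 fell, against 27.2% and 28.6% of all genes in WT and 28.0% and 30.1% in P53-/- cells. Without WT serum library 1, 4 rather than 7 of the 9 were called in WT cells. The de novo methyltransferase genes *Dnmt3a* and *Dnmt3b* fell in WT (-3.07 and -1.91) and in P53-/- cells (-3.51 and -2.38). *Tcf15* fell in both genotypes (-2.76 and -3.47), as did *Pou3f1*, which encodes OCT6 (-1.05 and -1.59), and *Zic2* rose by 1.72 in WT cells (0.36 and not called in P53-/- cells). Between genotypes, *Zic5* was lower in P53-/- 2i (fell by 0.99, adjusted p = 0.0861) and *Dnmt3a* was higher in P53-/- serum (log2 difference 0.92, adjusted p = 0.0641). Each was a single call of 9, against 5.97% of all genes called lower in 2i and 0.135% called higher in serum, and the count of 1 was kept in 9 of 18 alternatives in 2i and in 10 of 18 in serum. The list had a median difference of -0.46 in 2i and of 0.41 in serum, against 0.02 in each over all genes.

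Of 7 genes that report on ERK activity, 5 fell with 2i in WT and 6 in P53-/- cells, against 28.6% and 30.1% of all genes. The feedback inhibitors *Spry4* (-7.31 and -7.75) and *Spry2* (-2.62 and -3.58) fell in both genotypes, as did *Etv4* (-2.53 and -2.48) and *Spred1* (-2.45 and -2.22). *Dusp6*, which encodes an ERK phosphatase, fell by 2.32 in WT and by 2.51 in P53-/- cells. *Egr1* was called with culture in P53-/- cells only, where it fell in 2i by 3.16 (adjusted p = 0.00183 by limma), against -0.52 in WT cells. In 2i, *Egr1* fell by 3.17 on the log2 scale in P53-/- against WT cells (adjusted p = 0.0206) and *Spry2* fell by 1.08 (adjusted p = 0.0644), 2 of the 7 against 5.97% of all genes called lower. *Egr1*, an immediate early gene, was at 0.34 and 0.30 FPKM in P53-/- 2i and at 6.84 and 1.92 in WT 2i, so the WT libraries differed among themselves. Without P53-/- 2i library 2 neither was called, and without P53-/- 2i library 1, WT 2i library 1 or either WT serum library the count was 1, as it was in a fit of the 2i libraries alone and with eBayes without trend. *Spry2* was at 4.20 and 3.95 in P53-/- 2i and at 10.95 and 6.92 in WT 2i. None of the 7 was called between genotypes in serum by limma, and none had an unadjusted p under 0.05 there, against 0.135% of all genes called higher, 0.883% called lower and 11.3% at that unadjusted p.

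**Figure D4:**
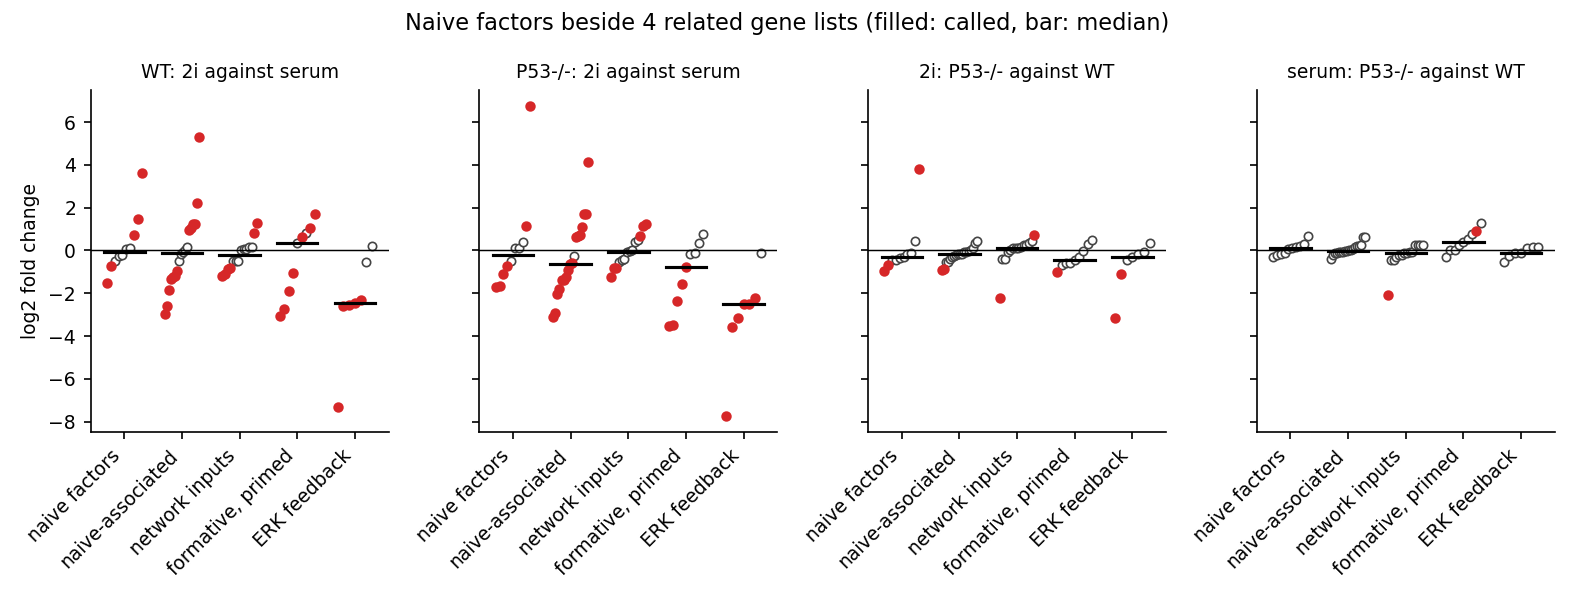
log2 fold changes (y axis) of the genes tested in the naive factor list and 4 related lists (x axis), in 4 comparisons, with 1 point per gene, filled where called, and a bar at the median. ERK feedback genes have medians of -2.45 and -2.51 for 2i against serum in WT and P53-/- cells, and the naive factors -0.09 and -0.21.

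Genes nearest in pattern to each member were sought by the root mean square difference, over the 8 libraries, of log2 values centred on each gene's mean, among 11495 genes of at least 1 FPKM. This likeness is a description and holds the differences between groups and between libraries alike. For 5 of the 10 members at least 134 genes lay within 0.2. The cutoff is absolute, so these counts depend in part on how far a member itself spread about its mean. That root mean square was 0.181 for *Tfcp2l1*, 0.281 for *Esrrb*, 0.439 for *Klf4* and 2.96 for *Dppa3*. *Esrrb* had 634 genes and *Prpf18* nearest at 0.064, *Tfcp2l1* had 488 and *Zbtb5* at 0.060, and *Klf2* had 412 and *Idh3b* at 0.072. *Klf4* had 26 genes within 0.2, the nearest being *Btbd11* (0.105) and *Col5a1* (0.120). *Btbd11* was at 2.19 and 1.95 FPKM in P53-/- 2i and at 3.60 to 4.88 elsewhere. *Tbx3* had 53 genes, with *Arxes2* at 0.104, and *Klf5* had 67, with *Nespas* at 0.102. *Nr0b1* had 22 genes, the nearest being *Ormdl1* at 0.150, which was also lower in the first WT 2i library (18.8 against 28.8 FPKM). *Prdm14* was nearest to *1110008P14Rik* (0.076) and *Zwint* (0.079), and *Zfp42* to *Klf9* (0.102). *Dppa3* had no gene within 0.2, and its nearest were *Aqp8* (0.610) and *C130073F10Rik* (0.673). *Aqp8*, which encodes a water channel, was at 8.38 and 11.2 FPKM in P53-/- 2i, 1.60 and 1.49 in WT 2i, and 0 in the 4 serum libraries. Among the members themselves, *Esrrb* and *Zfp42* were the closest pair (0.197), followed by *Klf4* and *Zfp42* (0.220), and *Klf5* and *Dppa3* were the farthest apart (3.72).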

How the data were processed

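RNA was sequenced from G1-sorted R1 FUCCI ESCs, WT and P53-/-, in serum and 2i. Per the labels, total RNA was depleted of ribosomal RNA, reverse-transcribed with random primers and made into stranded libraries. The authors deposited FPKM values per gene symbol for 8 libraries. Per the submitters' processing notes the tools were STAR, Cufflinks and DESeq2 on mm9, and their roles and versions are not given in the sources used here. Whether counting used strand is not stated either. The series lists 12 samples, and 4 of them (P21-/- 2i and their WT 2i controls) were not analysed here.

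Symbols were matched to GENCODE M21 (GRCm38; 98.2% of symbols, all 10 members), whose positions are printed, and promoters came from RefSeq (GRCm38.p6). Neither is the build of the files, which hold no coordinates. Tests were run in R 4.3.3 with limma 3.58.1. The scale was log2(FPKM + 0.1), which understates changes of low genes. A mean of 0.5 FPKM or more was required, which left 12572 genes, in 1 fit of the 4 groups with an eBayes trend and Benjamini-Hochberg adjustment over all genes tested. The 5 contrasts were 2i against serum in each genotype, P53-/- against WT in each culture, and the difference of the last pair. Called means an adjusted p below 0.1 with a more than 1.5-fold difference. Count tests could not be used on FPKM, depth is an estimate, and no interval for counting error is given. The fit was tested on simulated data.

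The genes named are the members, *Trp53* and *Cdkn1a*, up to 4 called genes of the largest change per related list and contrast, and the nearest genes in pattern. Genes of the marker lists and the neighbours of *Dppa3* were named after their values were seen. Members and lists were chosen with earlier results of these data known. Alternatives were other pseudocounts (1 and 0.01), filters, scalings and fits, a fit without 1287 small RNA genes, leaving out each library, and centring by chromosome, the last chosen after seeing the data. Figures were drawn with Python 3.11.15 and matplotlib 3.10.9.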

Additional observations from a re-analysis of the deposited data

Results flagged for a closer look

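*Klf4* and *Tbx3* were singled out because both P53-/- libraries lay below both WT libraries in 2i and above both WT libraries in serum. How many of all genes tested meet this rule was not counted, so the flag has no background to be set against. For *Klf4* the P53 effect on the log2 scale was -0.96 in 2i but 0.17 in serum, a gap of -1.13 (SE 0.19), with an adjusted p of 0.102 by limma. For *Tbx3* they were -0.66 and 0.30, with a gap of -0.96 (SE 0.19) and an adjusted p of 0.161. Neither gap between cultures passed the threshold. That of *Klf4* did in 4 of 17 alternatives and that of *Tbx3* in 1 of 17, and the serum differences of both genes were not called. No group was large enough for a test for outlying libraries.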

How the results depend on the processing

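Gene results under the alternatives kept direction and call in 1001 cases, gained a call in 26, lost one in 12 and changed sign in 29. The counts of members called were 5, with 4 to 6 under alternatives, for WT culture, 6 (6 to 7) for P53-/- culture and 3 (2 to 4) for P53-/- against WT in 2i. In serum the count was 0, and leaving out 1 library gave 0 to 1, the call being *Dppa3* without WT serum library 2. For the interaction it was 0, with 2 for a pseudocount of 1, 1 for a mean FPKM of at least 1, 1 for median-ratio scaling, 1 for quantile normalization, 2 without small RNA genes, 3 for centring by chromosome (*Klf4*, *Tbx3* and *Dppa3*; chosen after seeing the data), and 0 to 1 when 1 library was left out. Over all genes, P53-/- against WT gave 1299 calls in 2i (495 to 1404) and 128 in serum (63 to 187), and the interaction gave 26 (22 to 74).

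Signs changed in differences that were not called, as printed here. With 1 library left out, P53-/- against WT in 2i ran from -0.28 to 0.028 for *Klf2*, -0.33 to 0.017 for *Esrrb* and -0.065 to 0.99 for *Nr0b1*. In serum it ran from -0.042 to 0.19 for *Zfp42*, -0.23 to 0.038 for *Prdm14* and -0.017 to 0.25 for *Nr0b1*. The interaction ran from -0.32 to 0.11 for *Klf5*, -0.19 to 0.16 for *Esrrb*, -0.15 to 0.094 for *Tfcp2l1*, -0.18 to 0.87 for *Nr0b1*, -0.80 to 1.36 for *Trp53* and -0.35 to 0.24 for *Cdkn1a*. Culture differences ran from -0.021 to 0.23 for *Tfcp2l1*, -2.14 to 0.015 for *Trp53* and -0.073 to 0.30 for *Cdkn1a* in P53-/- cells, and from -0.78 to 0.28 for *Nr0b1* and -0.12 to 0.46 for *Cdkn1a* in WT cells. Scaling changed signs for *Esrrb* (interaction 0.011, median-ratio), *Zfp42* (serum -0.038, quantile), *Tfcp2l1* (interaction 0.14, centring by chromosome) and *Nr0b1* (serum -0.13, centring by chromosome). The causes were not tested.

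No paired analysis was possible because the columns carry neither replicate numbers nor clone names, and column order was not used to pair them. With 1 library left out, the lone library was assumed to vary like the other groups. Depth is an estimate up to a common factor, and no value was corrected for it.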
